A study of Homo sapiens with 18 samples.

Results

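The proteasome subunit genes were taken from the deposited table by symbol: PSMA, PSMB, PSMC, PSMD, PSME, PSMF or PSMG followed by a number, leaving out the immunoproteasome genes PSMB8, PSMB9 and PSMB10. The rule found 45 genes among 26372 symbols. Of these, 43 had a mean of at least 1 FPKM (fragments per kilobase of transcript scaled to the number of mapped fragments) over the libraries and were tested. The other two, PSMA8 and PSMB11, known as the testis and thymus forms of core subunits, were listed at 0 in most libraries and never exceeded 0.0663 FPKM.

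Expression was measured by RNA-seq of ribosomal RNA-depleted total RNA from SH-SY5Y, an established neuroblastoma line of human origin used as a model of neuronal differentiation. All 18 libraries came from cells given a lentivirus derived from the FUGW plasmid that carried ZNHIT3, a zinc-finger protein named in the series title in connection with snoRNP assembly. The construct was the wild-type sequence (WT), the C14R substitution or a deletion, and each was sampled at day 0 and at day 18 of culture in serum-free medium with BDNF, KCl, dibutyryl cyclic AMP and all-trans retinoic acid, with 3 libraries in each of 6 groups. The question is whether gene expression differs between wild-type and variant constructs, before and after differentiation. The deletion is labelled 251-254, 251-255 or 251-256 depending on the replicate (1, 2 and 3), and the titles call these libraries depleted. The labels name no library that received no ZNHIT3 construct, and the ZNHIT3 gene of the host cells is not stated to be altered, so every group may also carry its own copy. They do not say that replicates came from separate cultures, so p-values measure only the spread between these samples, which may be technical.

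The 26S proteasome degrades proteins tagged with ubiquitin. Its core particle is a barrel of outer rings of alpha subunits (PSMA genes), which gate entry, and inner rings of beta subunits (PSMB genes), of which PSMB5, PSMB6 and PSMB7 carry the proteolytic sites. The regulatory particle caps the barrel: a ring of ATPases (PSMC genes) unfolds substrates, the other base subunits and the lid (PSMD genes) receive ubiquitin chains, and PSMD14 in the lid removes them. Dedicated chaperones assist assembly of the core (PSMG1 to PSMG4) and of the base (PSMD5, PSMD9 and PSMD10). Alternative caps are formed by PSME1 with PSME2 (PA28), by PSME3 (PA28 gamma, nuclear) and by PSME4 (PA200), and PSMF1 (PI31) was described as an inhibitor of the core. When proteasome activity falls, the transcription factor NFE2L1 can raise most subunit genes together through antioxidant response elements in their promoters. Dividing cells and neurons both depend on the system, the latter also at synapses.

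Promoters are shown here for 4 members: PSMB5 and PSMB3, the beta-subunit genes with the most negative day 18 estimates, and PSME1 and PSMD1, which were higher at day 18 in every line. RefSeq's promoter table for GRCh38.p14 held a window of 250 bases before to 50 bases after the start for 39 of the 45 members. Each stretch is the exon-free run before the annotated start, read 5′ to 3′ on the gene's strand. Capitals mark matches on either strand to TGANNNNGC or to CCAAT, the box bound by NF-Y. TGANNNNGC is a loose pattern for the core of the antioxidant response element, and TGACNNNGC is the stricter form. The 2 marked motifs do not overlap in these stretches. The stretches lie at chr14:23035231-23035470 on the minus strand (PSMB5), and on the plus strand at chr17:38752491-38752735 (PSMB3), chr14:24135944-24136157 (PSME1) and chr2:231056617-231056863 (PSMD1).
PSMB5: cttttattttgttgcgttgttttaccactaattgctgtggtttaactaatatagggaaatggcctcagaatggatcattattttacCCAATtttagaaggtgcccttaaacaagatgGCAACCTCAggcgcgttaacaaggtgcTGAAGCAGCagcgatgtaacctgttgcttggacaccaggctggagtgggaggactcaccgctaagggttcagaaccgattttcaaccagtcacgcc
PSMB3: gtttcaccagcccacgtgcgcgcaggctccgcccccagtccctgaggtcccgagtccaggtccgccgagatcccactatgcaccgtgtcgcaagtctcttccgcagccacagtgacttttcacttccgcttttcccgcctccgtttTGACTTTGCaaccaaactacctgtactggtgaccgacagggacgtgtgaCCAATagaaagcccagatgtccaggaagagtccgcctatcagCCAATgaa
PSME1: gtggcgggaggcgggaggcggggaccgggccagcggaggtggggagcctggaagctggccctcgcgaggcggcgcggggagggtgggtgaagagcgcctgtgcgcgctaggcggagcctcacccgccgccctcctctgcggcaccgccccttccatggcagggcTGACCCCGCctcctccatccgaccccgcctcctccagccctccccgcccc
PSMD1: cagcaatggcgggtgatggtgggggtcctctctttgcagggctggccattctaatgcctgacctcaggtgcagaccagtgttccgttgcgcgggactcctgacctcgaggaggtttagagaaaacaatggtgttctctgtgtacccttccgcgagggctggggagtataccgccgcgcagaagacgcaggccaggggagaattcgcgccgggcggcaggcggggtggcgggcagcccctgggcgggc

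The shown PSMB5 stretch held 2 matches to TGANNNNGC and 1 to CCAAT, that of PSMB3 held 1 and 2, and that of PSME1 held 1 and 0. That of PSMD1 held 0 of either, but its window held 2 matches to TGANNNNGC after the start, which are not shown. Over the whole windows, taken at the first listed start of each gene, TGANNNNGC occurred in 24 of 39 members (61.5%) and in 42.1% of all 27305 promoters. CCAAT occurred in 18 members (46.2%) and in 35.7% of all promoters. The stricter form TGACNNNGC, every match of which is also a match to TGANNNNGC, was present in 12 members (30.8%) against 13.6% of all promoters. Of the capitalised TGANNNNGC matches, those of PSMB3 and PSME1 were of the stricter form and those of PSMB5 were not. TGANNNNGC occurred in 9 of 12 core promoters, PSMA8 and PSMB11 among them, and in 8 of 16 regulatory promoters. TGACNNNGC occurred in 1 of 12 core promoters (8.33%) and 4 of 16 regulatory promoters (25%). Further starts listed for some genes were not counted. PSMA4 of the core and PSMC5 of the regulatory particle held both patterns only at such a start. TGANNNNGC was present in 12 of the 19 matched members that were lower at day 18 in all 3 lines and in 2 of the 3 that were higher. Of the other matched members, 8 of 15 (53.3%) held it, and 12 of 19 is 63.2%. A match says nothing of binding, which was not measured.

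Depth and library structure bear on the values as follows. FPKM keep no counts, so absolute depth is unknown; steps of single fragments in values under 0.3 FPKM put the day 0 libraries at 59% to 84.7% of the deepest library and the day 18 libraries at 82.4% to 100%. The small RNA SNORD3A alone took from 1.01% to 58.6% of a library's summed FPKM. ZNHIT3 itself averaged 538, 424 and 303 FPKM at day 0 and 1153, 653 and 302 FPKM at day 18 in WT, C14R and deletion; the values do not tell the delivered from the host copy. The first principal component of all tested genes separated the days and held 86.9% of the variance, and C14R replicate 1 of day 18 stood apart on the second, at 24.8 against -8.3 to 9.3 for the others. Sympathetic neuroblast markers were present except TH, which lay near 0. Of the 8 tested, 4, 5 and 5 were higher and 2 lower at day 18 in WT, C14R and deletion. GATA2 fell to 26.4%, 24.6% and 26.8% of its day 0 mean, and DBH rose to 694%, 593% and 722%. All 11 tested neuronal markers rose and all 18 proliferation genes fell at day 18 in each line, the proliferation sum going from 675-726 FPKM at day 0 to 223-289 FPKM at day 18. The 8 tested of 10 mesenchymal markers also fell (summed level 547-597 FPKM against 140-164 FPKM), while summed Schwann-lineage markers went from 3.23-5.00 to 8.79-10.7 FPKM and summed endothelial or immune markers from 5.77-7.23 to at most 2.57 FPKM, with up to 3 and 4 of 8 at 0 in a library. S100B, of the Schwann-lineage list, rose and the tested immune marker CD68 fell in each line. FABP7 was at 0 in every library, and PECAM1 and CDH5 never exceeded 0.05 FPKM. These shifts accompany every day 18 result given next, and their part in them was not tested; in bulk RNA, fewer cells of a type and less RNA per cell cannot be told apart.

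Within a group, subunits of one particle differed widely in level. In WT at day 0, core genes ran from 15.1 FPKM for PSMA5, an alpha-ring subunit, to 252 FPKM for PSMB4, a beta subunit without a proteolytic site, a ratio of 16.7, with a median of 92.5 FPKM over 14 genes. Regulatory genes had a narrower span, from 31.8 FPKM for PSMD11 in the lid to 137 FPKM for the ubiquitin receptor PSMD4, a ratio of 4.32 around a median of 59.5 FPKM over 17 genes. Chaperones were the least abundant role, with a median of 18.9 FPKM over 7 genes. Levels here are FPKM, so they are per length.

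PSMB4 was the highest and PSMA5 the lowest core gene in all 6 groups, and PSMD4 was the highest regulatory gene in all 6. The order of the 43 genes was nearly fixed: Spearman's rho with WT at day 0 was 0.998 for C14R and 0.997 for the deletion at day 0, and from 0.952 to 0.959 for the 3 day 18 groups. These correlations are across genes, which are not independent replicates. Replicates were mostly tight, with a median coefficient of variation over the members of 3.02% to 7.11% by group. The widest member at day 18 was PSMG3 in WT (26.5%), PSMB3 in C14R (18.9%) and PSMG4 in the deletion line (20.2%).

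At day 18, most core subunits had lower FPKM than at day 0 in every construct, whereas the regulatory particle was split. In limma on log2(FPKM + 1) with Benjamini-Hochberg adjustment over all tested genes and a threshold of 0.05, 25 of 43 members were lower and 3 higher in WT, 30 lower and 3 higher in C14R, and 30 lower and 3 higher in the deletion line. Across all 13785 tested genes, 72.2%, 72.9% and 73% were called in these comparisons; calls of lower took 34%, 35% and 34.4%, and of higher 38.2%, 37.9% and 38.6%. The median log2 difference of the members was -0.21, -0.30 and -0.29, beside 0.03, 0.02 and 0.03 for all tested genes. In 24 members (55.8%, against 29.7% of all tested genes) the call was lower in all 3 lines. It was higher in all 3 for PSME1, PSMD10 and PSMD1, 6.98% of members against 33.3% of all tested genes. No member was called in opposite directions in different lines, beside 14 of all 13785 tested genes. In none of the lines were 8 of 43 members called, beside 2397 of all 13785 tested genes.

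The split of higher and lower depended on how libraries were scaled. When small RNA genes were left out and FPKM rescaled to equal sums, the median log2 difference of all genes shifted to 0.21, 0.18 and 0.23, and the members split into 14 higher and 14 lower in WT, 10 and 20 in C14R, and 8 and 17 in the deletion line. Of all genes tested under that scaling, 51.3%, 49.4% and 52.3% were called higher and 23.4%, 25% and 22.9% lower. As deposited, 37, 38 and 40 of 43 members lay below the all-gene median in WT, C14R and deletion. Rescaling whole libraries moves all genes nearly alike and cannot test that count; under quantile normalization it was 31, 33 and 35. Over 4 scalings and 3 lines, or 12 fits, 12 of 43 members were called lower each time, beside 19.8% of all genes tested: PSMA2, PSMA3, PSMA6, PSMA7, PSMB1, PSMB3 and PSMB5 of the core, PSMC5, PSMD6 and PSMD13 of the regulatory particle, the chaperone PSMG4 and the activator PSME3. PSME1, PSMD10 and PSMD1 were called higher each time, beside 30.1% of all genes tested. Another 8 of 43 members were called in both directions among the 12 fits, and the same count was not taken over all genes.

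**Figure D1:**
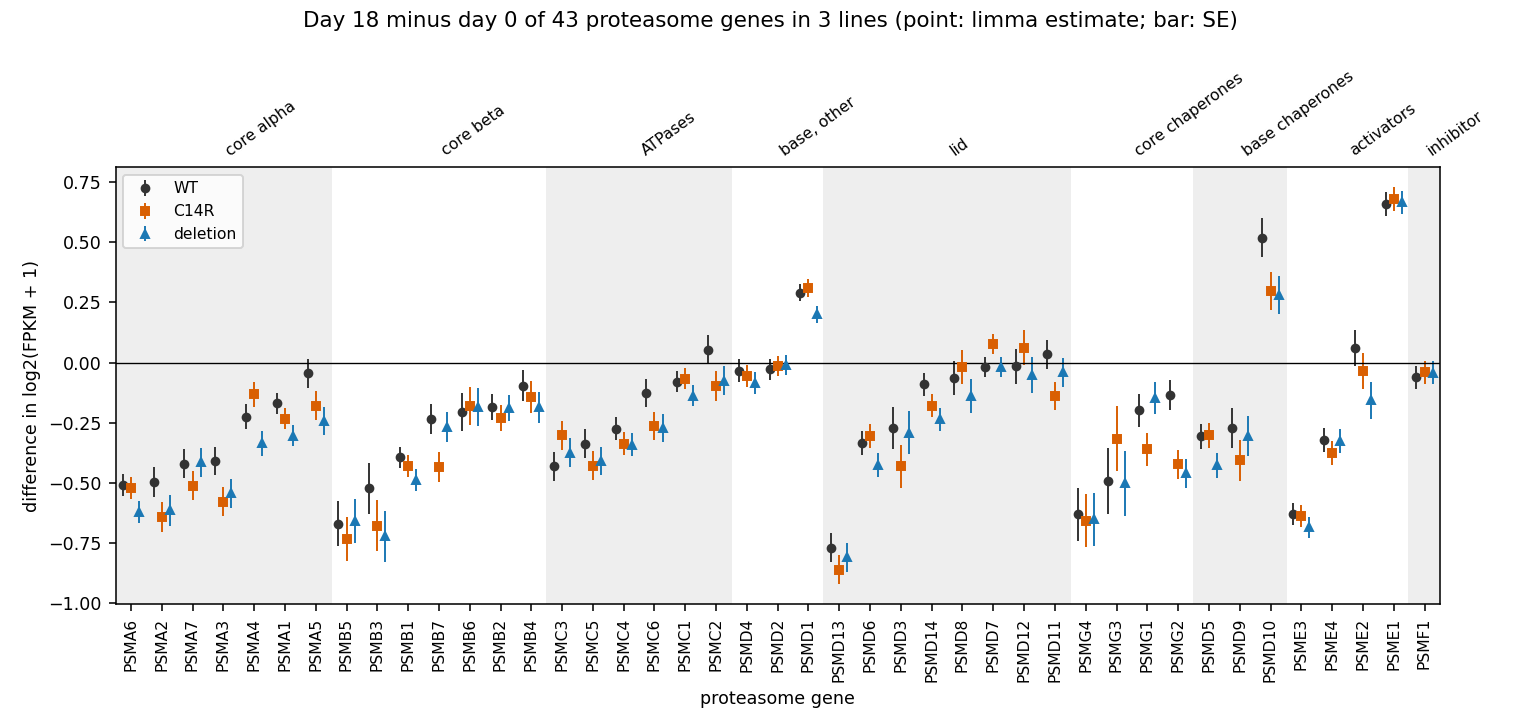
Day 18 minus day 0 in log2(FPKM + 1) for the 43 tested proteasome genes, grouped by role and ordered within a role by the WT value; points are limma estimates for WT, C14R and deletion as deposited and bars are standard errors. Core genes lie below 0 in each line, and PSME1, PSMD10 and PSMD1 lie above 0 in each; with small RNA genes left out and FPKM rescaled, estimates are higher by about the shift of the all-gene median and several genes near 0 change sign.

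In the core particle, 12, 13 and 14 of 14 genes were lower at day 18 in WT, C14R and deletion and 0 higher, with medians of -0.32, -0.43 and -0.37; after leaving out small RNA genes these counts were 7, 8 and 7 lower, with 1 higher (PSMA5, in WT). As deposited, 6, 7 and 7 of 7 alpha genes were lower, with medians of -0.41, -0.51 and -0.41, and 6, 6 and 7 of 7 beta genes, with medians of -0.24, -0.43 and -0.27. PSMA5 in WT, and PSMB4 in WT and C14R, were the core genes not called.

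PSMA6, an alpha-ring subunit, had the largest absolute alpha difference in WT. Its level was 126, 134 and 129 FPKM in WT at day 0 and 95.4, 89.9 and 87.2 FPKM at day 18. C14R libraries held 129.6, 126 and 129 FPKM and then 96.2, 87.1 and 84.1 FPKM, and deletion libraries 135, 131 and 136 FPKM and then 84.7, 88.2 and 88.2 FPKM. Every day 18 library lay below every day 0 library. The log2 difference was -0.51 ± 0.05 (SE) in WT, -0.52 ± 0.05 in C14R and -0.62 ± 0.05 in the deletion line, with limma adjusted p of 2.25e-08, 1.6e-08 and 1.63e-09 (n = 3 per group). The annotation names 4 pseudogenes of PSMA6.

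PSMB5, which carries the chymotrypsin-like site, showed the largest core difference in WT and C14R. It was at 81.8, 76.2 and 82.2 FPKM in WT at day 0 and at 54.1, 50.2 and 45.9 FPKM at day 18. C14R went from 80.4, 85.6 and 81.1 FPKM to 40.3, 50.2 and 58.6 FPKM, and the deletion line from 88.3, 84.6 and 81.6 FPKM to 54.3, 54.9 and 51.0 FPKM. The day groups did not overlap, and the widest spread was among the C14R libraries of day 18, where replicate 1 was the lowest of all. Log2 differences were -0.67, -0.73 and -0.66 (SE 0.09 each) with limma adjusted p of 4.25e-06, 1.41e-06 and 5e-06, and the day 18 mean was 62.6%, 60.4% and 62.9% of the day 0 mean.

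The other proteolytic subunits moved less. PSMB6, with the caspase-like site, was at 75.2, 72.3 and 74.1 FPKM in WT at day 0 and at 68.7, 56.1 and 67.7 FPKM at day 18. Its limma estimates of -0.21, -0.18 and -0.18 passed narrowly as deposited (adjusted p 0.0274, 0.0484 and 0.0456), and with small RNA genes left out none of the 3 estimates passed, the largest being 0.0341 in the deletion line. PSMB7, with the trypsin-like site, went in WT from 106, 107 and 103 FPKM to 88.7, 83.2 and 96.1 FPKM, and in C14R from 95.8, 105 and 110.2 FPKM to 71.4, 84.1 and 74.2 FPKM. Deletion libraries of PSMB7 were at 107, 103 and 104 FPKM and then at 82.2, 89.1 and 88.5 FPKM, and the log2 differences were -0.24, -0.43 and -0.27 (limma adjusted p 0.00279, 7.91e-06 and 0.000972). For PSMB7 only the C14R call was kept under each scaling.

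A ratio of 2 subunits within a library does not depend on its scaling. PSMB5 over PSMB6 was 1.05 to 1.26 in the 9 day 0 libraries and 0.679 to 0.922 in the 9 day 18 libraries. PSMB5 thus lay above PSMB6 in each day 0 library and below it in each day 18 library.

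In the regulatory particle as deposited, 6, 9 and 9 of 17 genes were lower and 1 higher in WT, C14R and deletion. Medians over the 17 genes were -0.08, -0.14 and -0.14. Of all tested genes, 34%, 35% and 34.4% were called lower and 38.2%, 37.9% and 38.6% higher. Leaving out small RNA genes gave 4, 5 and 5 of the 17 lower and 9, 7 and 5 higher. Under that scaling 23.4%, 25% and 22.9% of all genes were called lower and 51.3%, 49.4% and 52.3% higher. Among the ATPases, 3, 4 and 5 of 6 were lower as deposited and 0 higher. PSMC3, the largest absolute ATPase difference in WT, went there from 57.8, 59.5 and 55.3 FPKM to 43.5, 45.5 and 38.5 FPKM. In C14R it went from 55.0, 54.5 and 58.7 FPKM to 46.4, 45.8 and 43.7 FPKM, and in the deletion line from 59.0, 54.8 and 64.1 FPKM to 46.0, 44.8 and 45.4 FPKM. No day 18 library reached a day 0 library, and the limma differences were -0.43, -0.30 and -0.37 (SE 0.06; adjusted p 4.98e-06, 0.00022 and 2.42e-05). With small RNA genes left out the C14R difference was -0.12 (adjusted p 0.0718).

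As deposited, 0 of the 3 other base subunits were lower and 1 was higher. PSMD1, a scaffold of the base, was at 54.5, 52.9 and 54.7 FPKM in WT at day 0 and at 65.6, 64.7 and 68.5 FPKM at day 18. C14R held 53.1, 52.9 and 54.1 FPKM and then 67.8, 67.1 and 64.3 FPKM, and the deletion line 55.0, 56.7 and 53.8 FPKM and then 61.4, 63.6 and 65.5 FPKM. The groups did not overlap, and PSMD1 rose by 0.29, 0.31 and 0.20 (SE 0.04; limma adjusted p 1.46e-06, 6.26e-07 and 9.33e-05). Its partner scaffold PSMD2 had differences of -0.03, -0.01 and -0.01 as deposited and did not pass; it was called higher in all 3 lines when small RNA genes were left out. The ubiquitin receptor PSMD4 had differences of -0.03, -0.06 and -0.08 as deposited and did not pass. It was called lower in the deletion line under median-of-ratios scaling (-0.14) and higher in all 3 lines with small RNA genes left out (0.17, 0.13 and 0.14).

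The lid had 3, 5 and 4 of 8 genes lower as deposited. PSMD13, a structural lid subunit, had the largest difference of any member. It was at 57.7, 53.9 and 54.9 FPKM in WT at day 0 and at 35.0, 30.6 and 31.0 FPKM at day 18. C14R went from 56.0, 55.5 and 54.4 FPKM to 29.9, 32.9 and 27.6 FPKM, and the deletion line from 57.2, 56.1 and 58.1 FPKM to 33.7, 33.2 and 29.8 FPKM. Both days were tight and far apart. PSMD13 fell by 0.77, 0.86 and 0.81 on the log2 scale (SE 0.06; adjusted p in limma 4.68e-09, 1.07e-09 and 2.3e-09), to 58.1%, 54.4% and 56.4% of the day 0 mean. Against its lid neighbour PSMD7, its ratio was 0.767 to 0.857 at day 0 and 0.386 to 0.514 at day 18. PSMD7 was called lower in 0 and higher in 4 of the 12 fits over scalings and lines. The lid gene PSMD6 was called lower in 12 of 12, and a ratio to it was not taken. The gene lies on chromosome 11 at 236546-252984 on the plus strand in GENCODE release 29 on GRCh38 and overlaps SIRT3 on the other strand; without a stated use of strand, reads of the pair cannot be told apart.

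The mean over the core minus the mean over the regulatory particle, taken in log2(FPKM + 1) within each library, describes the balance of the particles and barely depends on a library's scale. At day 0 it was 0.42, 0.43 and 0.42 in WT, 0.39, 0.41 and 0.45 in C14R, and 0.41, 0.46 and 0.42 in the deletion line. At day 18 it was 0.27, 0.21 and 0.26 in WT, 0.13, 0.21 and 0.24 in C14R, and 0.20, 0.24 and 0.24 in the deletion line. The 9 day 18 libraries, at 0.13 to 0.27, lay below all 9 day 0 libraries, at 0.39 to 0.46.

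The change of that difference was -0.18 in WT (SD 0.00212 at day 0 and 0.03 at day 18), -0.22 in C14R (0.03 and 0.06) and -0.21 in the deletion line (0.02 at both days), with n = 3 per group and no test, since the members were chosen with results known. Without C14R replicate 1 of day 18 the C14R value was -0.19. Under quantile normalization it was -0.13, -0.18 and -0.15, and with the median over members in place of the mean -0.28, -0.36 and -0.28. The summed core FPKM went from 1382-1485 at day 0 to 1014-1199 at day 18, and the summed regulatory FPKM from 1102-1172 to 987-1056.

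**Figure D2:**
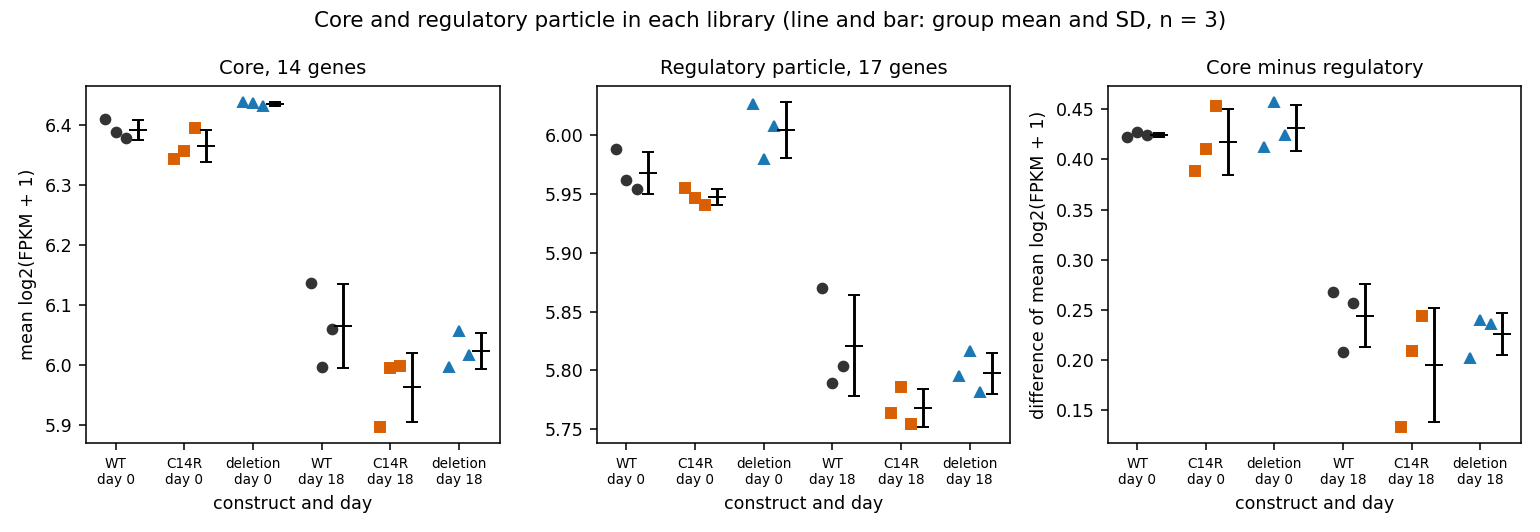
Mean log2(FPKM + 1) over 14 core genes (left), over 17 regulatory particle genes (middle) and their difference (right) in each of the 18 libraries, by construct and day; points are libraries and the black line and bar are the mean and SD of 3. The difference lies between 0.39 and 0.46 at day 0 and between 0.13 and 0.27 at day 18, with C14R replicate 1 of day 18 the lowest; the vertical axes do not start at 0, and the left and middle panels move with the scaling of the libraries.

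Alpha minus beta and lid minus ATPase, the only balances scored within a particle, moved less on average. They leave out the 3 other base subunits, whose balance against the ATPases was not scored. As deposited, the median day 18 difference of these 3 was -0.03, -0.01 and -0.01 in WT, C14R and deletion. For the 6 ATPases it was -0.20, -0.28 and -0.31. Alpha minus beta changed by 0.00 in WT and C14R, with overlapping libraries, and by -0.05 in the deletion line, where day 18 lay below day 0. The C14R mean hides a wide scatter at day 18, from -0.389 to -0.081 (SD 0.155, n = 3). Lid minus ATPase changed by 0.01, 0.02 and 0.02, with overlapping libraries in each line.

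Assembly chaperones of the core were lower at day 18 in 3, 4 and 3 of 4 genes as deposited. PSMG4, which pairs with PSMG3 in assembly of the alpha ring, was at 11.5, 12.2 and 9.69 FPKM in WT at day 0 and at 6.93, 5.98 and 7.64 FPKM at day 18. C14R went from 11.2, 11.3 and 12.6 FPKM to 7.51, 6.70 and 6.95 FPKM, and the deletion line from 10.8, 10.5 and 10.5 FPKM to 7.43, 4.98 and 6.99 FPKM. Day 18 lay below day 0 throughout, with differences of -0.63, -0.66 and -0.65 (SE 0.11; limma adjusted p 7.31e-05, 4.67e-05 and 5.05e-05). PSMG4 overlaps coding genes of the other strand, SLC22A23 and TUBB2B.

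Of the base chaperones, PSMD5 and PSMD9 were lower as deposited in all 3 lines while PSMD10 (gankyrin), which also binds the RB protein, was higher. PSMD10 was at 19.6, 19.3 and 17.7 FPKM in WT at day 0 and at 30.7, 25.0 and 27.0 FPKM at day 18. C14R held 20.9, 21.6 and 20.9 FPKM and then 28.3, 24.7 and 25.8 FPKM, and the deletion line 22.0, 21.6 and 18.9 FPKM and then 23.9, 28.4 and 24.4 FPKM. The days did not overlap in any line. PSMD10 rose by 0.52, 0.30 and 0.28 (SE 0.08; limma adjusted p 1.49e-05, 0.00275 and 0.0042). The annotation names 3 pseudogenes of PSMD10, so its reads may be divided among copies.

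The activators diverged. PSME1 was at 85.9, 79.3 and 79.2 FPKM in WT at day 0 and at 138, 119 and 130.3 FPKM at day 18. C14R went from 78.3, 79.5 and 76.0 FPKM to 124, 124 and 127 FPKM, and the deletion line from 86.7, 81.9 and 80.1 FPKM to 132, 128 and 136 FPKM. Every day 18 library was above every day 0 library, and PSME1 rose by 0.66, 0.68 and 0.66 (SE 0.05; limma adjusted p 1.7e-09, 1.15e-09 and 1.45e-09), to 158.7%, 160.8% and 159.2% of the day 0 mean. It lies on chromosome 14 at 24136158-24138967 and overlaps EMC9 on the other strand.

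PSME2, whose product joins that of PSME1 in one ring, did not follow. It was at 74.5, 82.8 and 82.2 FPKM in WT at day 0 and at 91.6, 76.6 and 81.7 FPKM at day 18. As deposited, its differences of 0.06, -0.03 and -0.16 did not pass in limma (adjusted p 0.493, 0.698 and 0.0683). In the deletion line the days did not overlap, at 82.2 to 86.3 FPKM and then 74.5 to 77.0 FPKM. Among the 12 fits over scalings and lines, PSME2 was called lower in 1 and higher in 1. PSME1 over PSME2 was 0.915 to 1.15 in the day 0 libraries and 1.44 to 1.80 in the day 18 libraries, without overlap. The annotation names 2 pseudogenes of PSME2, which makes its level uncertain.

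PSME3 went the other way from PSME1. It was at 48.6, 50.2 and 46.0 FPKM in WT at day 0 and at 32.2, 30.7 and 29.6 FPKM at day 18; across lines the day 0 libraries held 45.9 to 50.2 FPKM and the day 18 libraries 28.6 to 32.2 FPKM. PSME3 fell by 0.63, 0.64 and 0.68 on the log2 scale (SE 0.04; adjusted p in limma 7.8e-10, 6.65e-10 and 2.41e-10). PSME3 over PSME1 accordingly went from 0.566-0.633 to 0.219-0.257. PSME3 overlaps BECN1 on the other strand. PSME4, the nuclear cap, was lower in each line as deposited, with differences of -0.32, -0.38 and -0.33.

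PSMF1 varied little. It was at 19.0, 18.8 and 20.1 FPKM in WT at day 0 and at 19.8, 18.0 and 17.6 FPKM at day 18, and over all libraries it stayed between 17.6 and 20.9 FPKM. Its differences of -0.06, -0.04 and -0.04 did not pass in limma (adjusted p 0.263, 0.45 and 0.449), and with small RNA genes left out they were 0.14, 0.14 and 0.17 and passed.

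**Figure D3:**
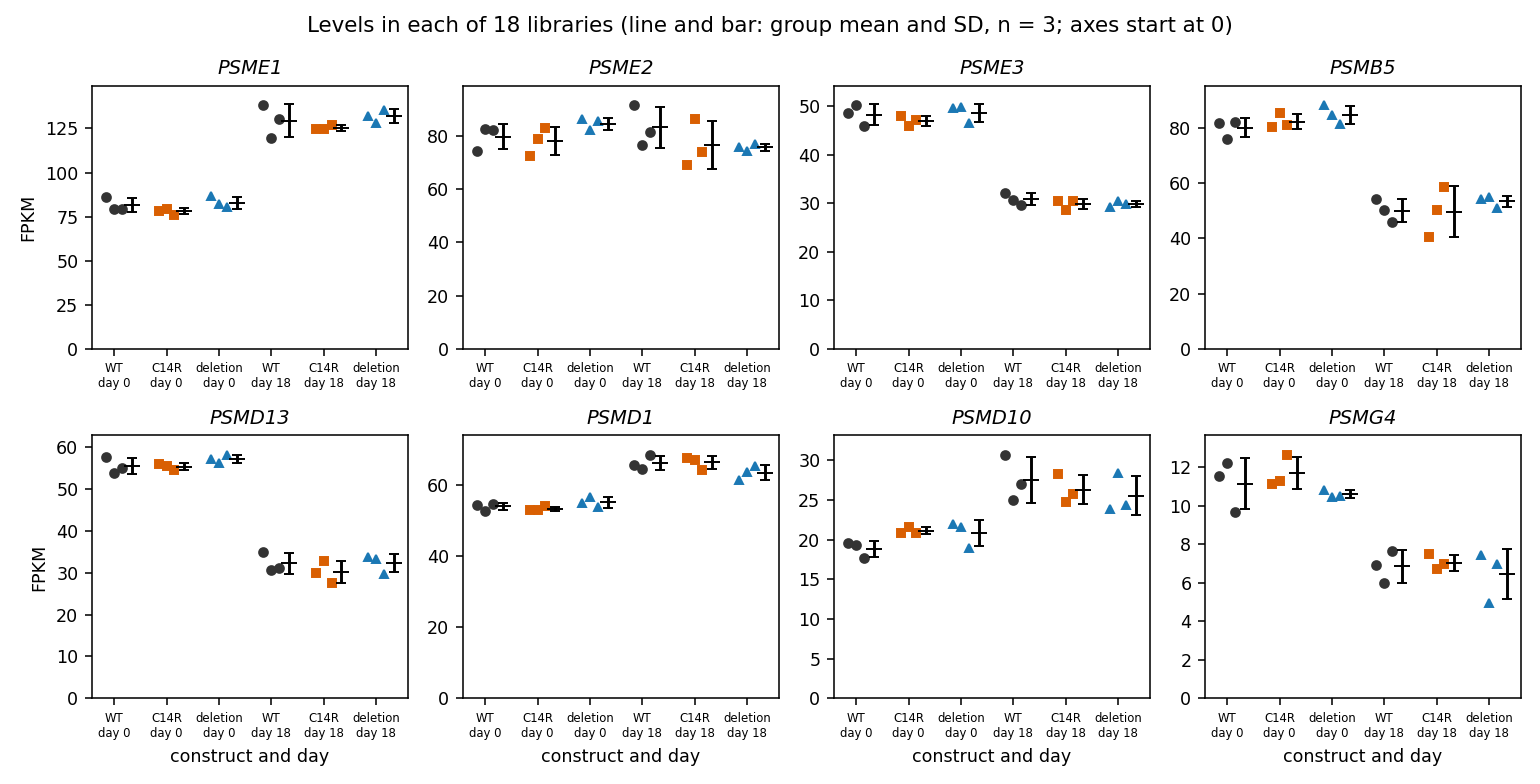
FPKM of 8 proteasome genes in each of the 18 libraries by construct and day, on axes that start at 0; points are libraries and the black line and bar are the mean and SD of 3. PSME1, PSMD1 and PSMD10 are higher and PSME3, PSMB5, PSMD13 and PSMG4 lower at day 18 with no overlap, while the days overlap for PSME2 in WT and C14R; these calls for the 7 genes hold under each of the 4 scalings.

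Partners of the proteasome (receptors, deubiquitinases, shuttles and assembly factors) were called in both directions, as were all tested genes. Of 16 tested partners, 5, 3 and 5 were higher and 6, 6 and 6 lower at day 18 in WT, C14R and deletion as deposited. Their medians were near 0 (-0.04, -0.01 and -0.05). Of all tested genes, 38.2%, 37.9% and 38.6% were called higher and 34%, 35% and 34.4% lower. Leaving out small RNA genes gave 9, 9 and 10 partners higher and 2, 2 and 3 lower. Under that scaling 51.3%, 49.4% and 52.3% of all genes were called higher and 23.4%, 25% and 22.9% lower. SHFM1 (now SEM1), a small lid subunit outside the PSM symbols, had the largest fall, with log2 differences of -0.50, -0.48 and -0.55 (adjusted p in limma 9.9e-08, 1.4e-07 and 2.55e-08). POMP, which matures the core, fell by 0.17, 0.28 and 0.35 as deposited, but its WT estimate was 0.04 and did not pass with small RNA genes left out. PAAF1, an inhibitor of core and cap association, had the largest rise, of 0.40, 0.38 and 0.46, and SHFM1 and PAAF1 kept their calls under each scaling.

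Of 8 genes around NFE2L1, 5 rose in each line as deposited, and 0, 0 and 1 (VCP) fell in WT, C14R and deletion. Of all tested genes, 38.2%, 37.9% and 38.6% were called higher and 34%, 35% and 34.4% lower. When small RNA genes were left out, 7, 6 and 5 of 8 rose and 0 fell, and VCP was called higher in WT and C14R. Under that scaling 51.3%, 49.4% and 52.3% of all genes were called higher and 23.4%, 25% and 22.9% lower. NFE2L1 itself was at 52.2, 51.4 and 50.6 FPKM in WT at day 0 and averaged 71.8 ± 0.269 FPKM (SD, n = 3) at day 18; it rose by 0.48, 0.54 and 0.46 (limma adjusted p 4.43e-09, 9.42e-10 and 6.06e-09). MAFG, a small MAF partner, had the largest rise in WT and deletion, of 0.84 and 0.77, and rose by 0.58 in C14R, where MAFF, another small MAF gene, rose by 0.60. NFE2L1 RNA rose in the same libraries in which most core subunits were lower as deposited. With small RNA genes left out, 7, 8 and 7 of the 14 core genes were lower in WT, C14R and deletion. NFE2L1 protein was not measured, and a link between its RNA and the core genes was not tested.

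RPS27A, which encodes ubiquitin fused to a ribosomal protein, fell by 1.01, 0.87 and 0.92 on the log2 scale in WT, C14R and deletion (adjusted p in limma 3.03e-12, 2.28e-11 and 9.42e-12), and it was lower under each scaling. The immunoproteasome genes PSMB8 and PSMB10 were called lower in all 3 lines as deposited, at low levels (in WT at day 0 they averaged 4.32 and 6.59 FPKM). With small RNA genes left out 1, 0 and 2 of these 2 passed, and PSMB9 was below the filter.

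The variants were then compared with WT on the same day. In limma, 0 of 43 members passed in any of C14R against WT, deletion against WT and C14R against deletion at day 0 or day 18. Of all tested genes 0%, 0.029% and 0.058% were called at day 0, and 0.0363%, 0.0725% and 0.029% at day 18. At an unadjusted p under 0.05, the members numbered 0, 1 and 3 at day 0 (2.81%, 6.22% and 9.84% of all tested genes) and 10, 5 and 6 at day 18 (11.1%, 11.4% and 11.2%).

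At day 0 every member had an adjusted p of 1 in limma for C14R against WT; PSMD6, a lid subunit, had the smallest unadjusted p (difference -0.10, p 0.0561). By the same measure the first member was PSMG2 for deletion against WT (0.14, p 0.0313, limma adjusted p 0.773) and PSMA7 for C14R against deletion (-0.14, p 0.0363, limma adjusted p 0.475). PSMD6 was at 49.5, 45.0 and 47.7 FPKM in WT and 45.6, 43.6 and 42.9 FPKM in C14R, which overlap. The median difference over the members at day 0 was -0.02, 0.04 and -0.05 in these comparisons.

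At day 18 the 10 members of C14R against WT with an unadjusted p under 0.05 were all lower in C14R: PSMA1, PSMA3, PSMA5, PSMA7 and PSMB7 of the core, PSMC4, PSMC6 and PSMD11 of the regulatory particle, and the chaperones PSMD9 and PSMG2. Lower at that level were 5.77% of all tested genes. None passed after adjustment; the nearest was PSMG2, a chaperone that pairs with PSMG1. It was at 24.5, 20.6 and 24.8 FPKM in WT and 19.0, 19.4 and 19.9 FPKM in C14R, which do not overlap, with a limma difference of -0.25 ± 0.06 (SE) and an adjusted p of 0.134. In the deletion line it was at 20.0, 19.3 and 21.8 FPKM, which overlaps WT through WT replicate 2.

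This comparison turned on single libraries. Without WT replicate 2 of day 18, PSMG2 passed (-0.33, limma adjusted p 0.0302). Without C14R replicate 2 of day 18, PSMA7 (-0.27, adjusted p 0.0433) and PSMB7 (-0.29, adjusted p 0.0389) passed, and with limma's array weights PSMA5 did (-0.24, adjusted p 0.0288). PSMA7 was at 109, 96.5 and 105 FPKM in WT, at 81.3, 97.7 and 90.0 FPKM in C14R and at 105, 107 and 104 FPKM in the deletion line at day 18. C14R thus lay below the deletion line and overlapped WT; against the deletion line the PSMA7 difference was -0.24 (limma adjusted p 0.374). For deletion against WT at day 18 the smallest adjusted p was that of PSMA1, at 75.5, 74.3 and 76.9 FPKM in WT and 64.5, 68.2 and 72.0 FPKM in the deletion line (-0.15 ± 0.04, adjusted p 0.244).

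**Figure D4:**
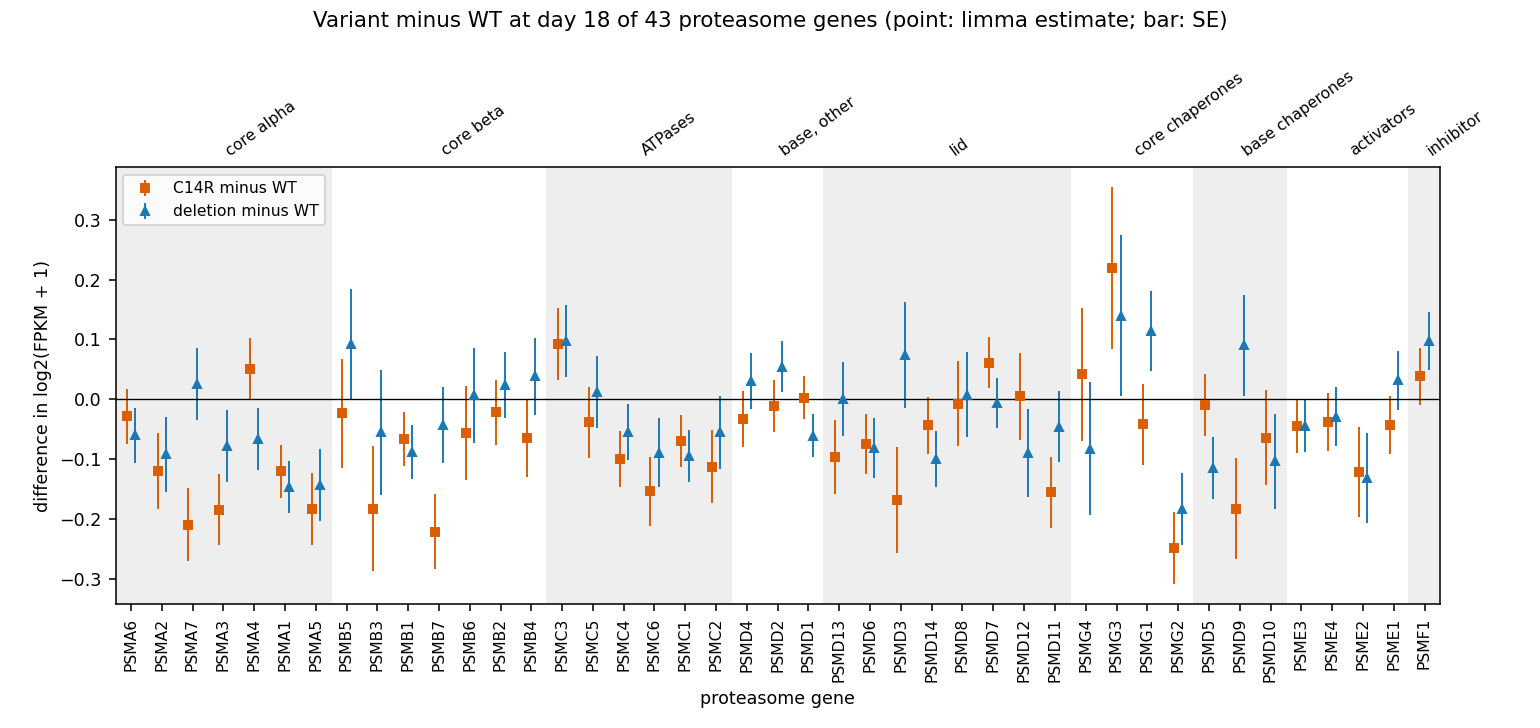
C14R minus WT and deletion minus WT at day 18 in log2(FPKM + 1) for the 43 tested proteasome genes, grouped by role; points are limma estimates and bars are standard errors. Estimates lie between -0.25 and 0.22, C14R minus WT is below 0 in 35 of 43 genes and deletion minus WT in 26, and 0 pass after adjustment.

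Whether the day 18 difference itself depended on the variant was tested as an interaction. In limma 0 of 43 members passed for either variant, beside 0% of all tested genes for C14R and 0.0145% for the deletion; 2 and 5 members had an unadjusted p under 0.05, beside 5.73% and 7.36% of all tested genes. PSMG2 came nearest in both, with -0.29 ± 0.09 (SE, adjusted p 0.651) for C14R and -0.33 ± 0.09 (adjusted p 0.318) for the deletion. Both interactions share the WT libraries. A p that misses the threshold does not show that the lines respond alike.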

How the data were processed

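The authors deposited one table of FPKM per gene symbol, with one column per library and 0 columns without a sample. Total RNA was extracted with TRIzol, rRNA was removed with Ribo-Zero, and the NEBNext Ultra kit was used for the libraries, per the labels' protocols. The submitters' processing notes name TopHat2, STAR, Cufflinks 2.2.1 and hg38, without role or order; the annotation, the use of strand and any scaling between libraries are not given in the sources used here. Overlapping genes (26 of 45 members, 23 on the other strand) and genes with named pseudogenes (12 members, PSMC1 with 13) may therefore have divided reads.

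FPKM as deposited were put on a log2(FPKM + 1) scale, with a pseudocount of 1, which understates changes of low genes. Genes with a mean FPKM of at least 1 (13785) were fitted in limma 3.58.1 (R 4.3.3) as 6 group means over 18 libraries with empirical Bayes moderation along a trend in mean level. Adjustment was by Benjamini-Hochberg within each of 11 comparisons, with a threshold of 0.05. The fit was checked on simulated data. Groups and replicate numbers came from the titles. Core, regulatory and other roles, and the pathway and marker lists, were written by hand, and members and lists were chosen with earlier results of these data known. Values per library are given for the 3 largest rises and falls in WT, the largest absolute difference in each role, PSMF1, the proteolytic subunits and the member nearest the threshold in each variant comparison; other members were added after their values were seen. Same-numbered libraries had correlations of -0.363 to 0.168 in their deviations from group means, so the numbers were not taken as pairs. Alternatives were the pseudocount, filter, scaling, variance model, replicate block, and each library left out. Positions came from GENCODE release 29 and promoters from RefSeq, matched by symbol. Some genes of the ubiquitin supply list are not reported here.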

Additional observations from a re-analysis of the deposited data

How the results depend on the processing

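Counts of called members stayed within 1.5 times the value given under the other settings, with the exceptions that follow. With small RNA genes left out and FPKM rescaled, members higher at day 18 numbered 14, 10 and 8 in WT, C14R and deletion and members lower 14 in WT and 17 in the deletion line; among called members 50%, 33.3% and 32% were higher, beside 10.7%, 9.09% and 9.09% as deposited. Under the same scaling PSMF1 changed sign, to 0.14, 0.14 and 0.17 (limma adjusted p 0.0127, 0.0138 and 0.0031), as did PSMB6 in C14R (0.001665, adjusted p 0.985) and in the deletion line (0.0341, adjusted p 0.688); PSMB6 was the least stable call, lost in 3 of 7, 4 of 6 and 5 of 7 fits that left out a library. The core minus regulatory change was -0.14, -0.17 and -0.16 with no filter, which lets PSMA8 and PSMB11 into the core mean, -0.13, -0.18 and -0.15 under quantile normalization, and -0.28, -0.36 and -0.28 with medians over members. For C14R against WT at day 18, array weights called 1 member, and leaving out a library called 0 to 2. Leaving out each library gave 25 to 32 called at day 18 in WT, 30 to 34 in C14R and 30 to 35 in deletion, and core minus regulatory changes of -0.19 to -0.16, -0.25 to -0.19 and -0.21 to -0.19; where an arm then had 2 libraries, the spread was pooled over groups.

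With the replicate number as a block, 29, 33 and 33 members were called at day 18 and 0 in each variant comparison and interaction. Of 18 libraries, 3 correlated best with their own number, and the labels do not say that a number marks a shared batch. Absolute depth is unknown, so counting error in low members such as PSMG4 cannot be given, and the smallest exact two-sided p of 3 against 3 libraries is 0.1.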
